A study of Homo sapiens with 16 samples.

Results

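TNFAIP3, TNIP1, TNIP2, CYLD, TRAF1, TRAF2, TRAF3, BIRC2, BIRC3 and TNFAIP8 are the ubiquitin editors, TRAF adaptors and cellular inhibitor of apoptosis proteins (cIAPs) that act on the branch between the tumour necrosis factor and Toll-like receptors and NF-κB, together with an NF-κB-induced relative of the death pathway. They were taken by symbol, and all 10 were found among the 23575 symbols of the count table. RNA was sequenced from HL-60, a human promyelocytic leukaemia line, in 16 libraries and 10 groups. Differentiated, neutrophil-like cells (dHL-60) received 1 µg/ml or 10 µg/ml lipoteichoic acid (LTA) of Staphylococcus aureus or were left untreated, and were collected at 4 h or 24 h, with 2 libraries in each of the 6 groups. Undifferentiated cells (uHL-60) received 1 µg/ml LTA or no treatment for the same times, with 1 library in each of the 4 groups. All groups carry the labels of wild-type cells of this 1 line. The sources used here do not give the agent of differentiation. The labels do not say whether both dHL-60 libraries of a group were grown as separate cultures, so the spread behind each p-value is that of the libraries and may be technical in part.

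LTA, a glycolipid of the Gram-positive cell wall, is sensed by TLR2. Signals from that receptor and from the tumour necrosis factor receptors are built on non-degradative ubiquitin chains, which cIAPs and TRAFs write or help to write and on which the kinases upstream of NF-κB assemble. TNFAIP3 (A20), with its ubiquitin-binding partners TNIP1 and TNIP2, and CYLD take these chains apart or block them, and several of the genes are themselves NF-κB targets, which closes a feedback loop. TRAF2, TRAF3 and the cIAPs also form the complex that keeps the kinase NIK, the starter of the alternative NF-κB pathway, at a low level.

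Libraries held 9653374 to 20157081 counts, 9653374 to 16530277 in dHL-60 and 15356752 to 20157081 in uHL-60. Levels are CPM, the counts of a gene relative to the library total, scaled by TMM factors, which ran between 0.8239 and 1.131. The 6 markers of neutrophil-like cells, among them ITGAM and CYBB, summed to 834.7 to 3176 CPM in dHL-60 and 194.0 to 219 CPM in uHL-60. The 5 promyelocyte markers summed to 4801 to 22225.5 CPM in dHL-60, highest in untreated cells at 24 h, and 23359.5 to 26107 CPM in uHL-60. At both times MPO and PRTN3 of that list were lower in untreated dHL-60 than in untreated uHL-60, while ELANE and AZU1 were higher. The 5 macrophage markers summed to at most 7.16 CPM and the 4 lymphocyte markers to at most 0.943 CPM in any library. In bulk RNA, fewer cells of a type and less RNA per cell cannot be told apart.

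The genes are spread over the genome except for the 2 cIAPs, which are neighbours on chromosome 11. BIRC3 lies at chr11:102317484-102339403 and BIRC2 at chr11:102347214-102378670, both on the plus strand of GRCh38, with 7811 bases between the end of BIRC3 and the start of BIRC2. TNFAIP3 lies at chr6:137866349-137883312 and CYLD at chr16:50742086-50801935, both on the plus strand. TNIP1 lies at chr5:151029943-151087685 and TNIP2 at chr4:2741648-2756336, both on the minus strand. TRAF1 lies at chr9:120902393-120929171 on the minus strand and TRAF2 at chr9:136881958-136926607 on the plus strand. TRAF3 lies at chr14:102777449-102911500 and TNFAIP8 at chr5:119268759-119399688, both on the plus strand. None of the 10 genes shares exon bases with another gene on its own strand. On the other strand TNFAIP3 shares 1.88% and CYLD 0.641% of exon bases with genes annotated there, and as the sources used here do not give how strand was treated in counting, reads of these stretches cannot be told apart.

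Promoter windows of RefSeq (GRCh38.p14, 250 bases before to 50 bases after an annotated start) were searched on both strands for the NF-κB consensus of 10 bases. A match was found for 5 of the 10 genes (50%) and in 6 of their 18 windows (33.3%), against 1937 of 27305 genes (7.09%) and 2075 of 35116 windows (5.91%) among all RefSeq genes and windows of the promoter table. The windows below are shown because these 4 genes hold a match and had the largest changes among the 5 that do. Capitals mark the match, and each sequence is written 5′ to 3′ on the strand of its gene. The TNFAIP3 window is chr6:137867009-137867308 (plus strand), that of BIRC3 chr11:102317234-102317533 (plus strand), that of TNIP1 chr5:151080985-151081284 (minus strand) and that of TRAF3 chr14:102777199-102777498 (plus strand).
TNFAIP3: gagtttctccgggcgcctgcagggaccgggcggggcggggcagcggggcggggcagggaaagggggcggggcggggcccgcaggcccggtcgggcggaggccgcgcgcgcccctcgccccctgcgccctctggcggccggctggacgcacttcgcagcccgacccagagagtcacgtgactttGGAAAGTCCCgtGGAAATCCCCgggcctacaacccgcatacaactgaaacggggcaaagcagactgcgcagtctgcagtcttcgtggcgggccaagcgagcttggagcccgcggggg
BIRC3: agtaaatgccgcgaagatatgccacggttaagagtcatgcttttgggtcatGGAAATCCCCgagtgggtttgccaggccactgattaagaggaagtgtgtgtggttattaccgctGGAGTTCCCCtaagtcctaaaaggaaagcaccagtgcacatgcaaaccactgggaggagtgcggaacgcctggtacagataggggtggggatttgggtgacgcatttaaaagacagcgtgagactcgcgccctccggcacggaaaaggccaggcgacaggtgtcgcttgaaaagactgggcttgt
TNIP1: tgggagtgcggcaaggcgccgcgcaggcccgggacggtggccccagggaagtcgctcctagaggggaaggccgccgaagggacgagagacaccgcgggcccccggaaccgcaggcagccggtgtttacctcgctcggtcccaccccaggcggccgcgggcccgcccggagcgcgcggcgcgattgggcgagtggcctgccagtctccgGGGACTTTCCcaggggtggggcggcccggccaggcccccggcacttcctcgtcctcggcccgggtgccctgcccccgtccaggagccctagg
TRAF3: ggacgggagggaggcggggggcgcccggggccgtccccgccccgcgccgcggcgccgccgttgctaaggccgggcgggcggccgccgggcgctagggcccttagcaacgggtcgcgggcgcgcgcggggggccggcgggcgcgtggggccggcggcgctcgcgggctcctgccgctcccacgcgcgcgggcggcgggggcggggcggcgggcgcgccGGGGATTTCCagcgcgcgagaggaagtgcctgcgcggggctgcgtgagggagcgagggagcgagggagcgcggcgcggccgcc

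TNFAIP3 holds a pair of matches side by side, both on the other strand. GGGACTTTCC starts 67 bases and GGGGATTTCC 55 bases before the annotated start of its window, which lies inside the span of the gene given above. BIRC3 also holds a pair on the other strand, GGGGATTTCC starting 199 bases and GGGGAACTCC starting 135 bases before its annotated start. TNIP1 has GGGACTTTCC 42 bases before 1 of its annotated starts, and its other window holds no match. TRAF3 has GGGGATTTCC 33 bases before the start. Both matches are on the strand of the gene. CYLD has GGGACTTTCC starting 189 bases before 1 of its 3 annotated starts and GGGGCTTCCC at another. The same 10 letters thus recur in TNFAIP3, TNIP1 and CYLD, and a second set in TNFAIP3, BIRC3 and TRAF3. No match lay in the windows of TRAF1, TRAF2, TNIP2, BIRC2 or TNFAIP8. No window covers the outer start of TNFAIP3, TNIP1 or TRAF2 as placed above, so those starts were not searched. A match is a description of letters and not of a site in use.

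**Figure D1:**
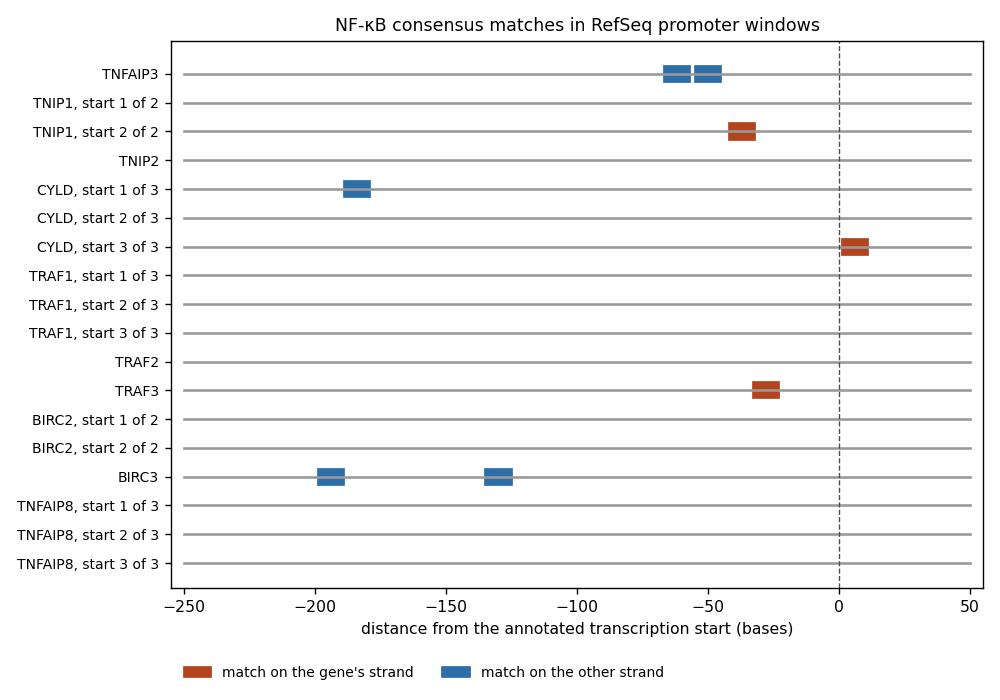
Position of NF-κB consensus matches (boxes, 10 bases wide) in each RefSeq promoter window of the 10 genes, with the distance from the annotated start in bases on the x axis and 1 line per window. Red boxes are on the strand of the gene and blue boxes on the other strand. The boxes fall in 6 of the 18 windows, and the TNFAIP3 pair starts 67 and 55 bases before the annotated start of its window.

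Levels before LTA were ranked per length of exon, counting each base of any annotated exon of a gene once. This is not the length of the transcripts in use, and the order depends on it. In untreated dHL-60 at 4 h, TNFAIP3 and TNIP1 led with 35.25 and 34.15 CPM per kilobase (means of 2 libraries), followed by TNIP2 at 24.6, TRAF1 at 14.65, BIRC2 at 12.9, CYLD at 11.6, TNFAIP8 at 9.54, TRAF3 at 7.60, TRAF2 at 7.25 and BIRC3 at 6.59. In untreated uHL-60 at 4 h TNIP1 and TNIP2 led with 14.06 and 13.55 CPM per kilobase, and BIRC3 at 0.520 and TRAF1 at 0.0998 came last. The span between the highest and the lowest group mean in CPM was 2092-fold for TRAF1, 130.0-fold for TNFAIP3 and 126-fold for BIRC3. It was 11.3-fold for TNIP1, 7.83-fold for CYLD, 5.99-fold for TNIP2, 4.56-fold for TRAF3, 3.71-fold for BIRC2 and 3.13-fold for TNFAIP8. TRAF2 had the narrowest span, 1.71-fold. For 9 genes the highest mean was a dHL-60 group at 4 h with LTA and the lowest a uHL-60 group, and for TRAF2 the highest was dHL-60 with 1 µg/ml at 4 h and the lowest untreated dHL-60 at 4 h.

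**Figure D2:**
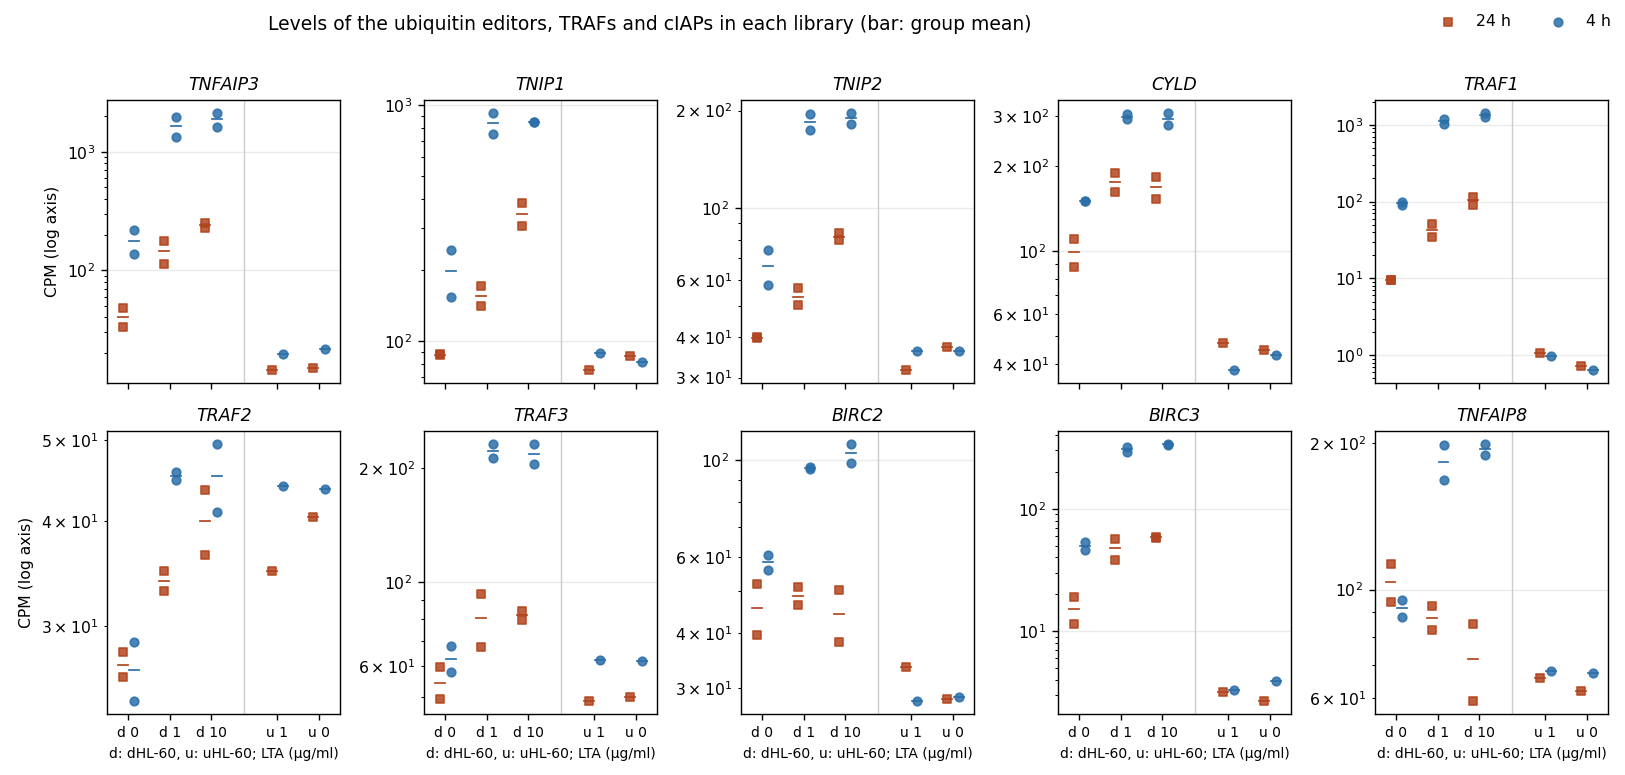
CPM (log axis) of each gene in each library, dHL-60 with 0, 1 and 10 µg/ml LTA left of the grey line and uHL-60 with 1 and 0 µg/ml right of it. Red squares are 24 h, blue circles 4 h, and bars are group means. The TRAF1 libraries reach from 0.644 CPM in untreated uHL-60 at 4 h to 1429 CPM in dHL-60 with 10 µg/ml LTA at 4 h, while those of TRAF2 all lie between 24.4 and 49.5 CPM.

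The first comparison asked what LTA did to these genes in dHL-60 at 4 h. All 10 were higher with 1 µg/ml LTA, by 1.64-fold to 11.7-fold, and all 10 were higher with 10 µg/ml. Among all 11866 genes tested, 18.7% were higher and 20.1% lower with 1 µg/ml, and 20% were higher and 21.3% lower with 10 µg/ml. The median log2 fold change of the 10 genes was 1.65 with 1 µg/ml and 1.66 with 10 µg/ml, against -0.04 over all genes tested with each dose. For each gene and each dose, both libraries with LTA stood above both untreated libraries. How many of all genes tested separate in this way was not counted. Changes are log2 fold changes ± SE with adjusted p from the edgeR quasi-likelihood test over all genes. The libraries with different doses were set against the same untreated libraries.

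Of the editors, TNFAIP3 had 219.9 and 136 CPM in the untreated libraries at 4 h, 1957 and 1319.6 CPM with 1 µg/ml and 2132 and 1624 CPM with 10 µg/ml. The log2 fold change was 3.20 ± 0.30 with 1 µg/ml (adjusted p = 2.53e-06) and 3.40 ± 0.30 with 10 µg/ml (adjusted p = 1.46e-06). Per length it was the most abundant of the 10 with either dose, at 324 and 372 CPM per kilobase. TNIP1 (ABIN1), which tethers A20 to ubiquitin chains, had 242.5 and 153 CPM untreated, 925 and 754 CPM with 1 µg/ml, and 847.9 and 847.8 CPM with 10 µg/ml. All 4 libraries with LTA lay above both untreated libraries, and it changed by 2.08 ± 0.21 with 1 µg/ml (adjusted p = 4.24e-06). TNIP2 (ABIN2), which also holds the kinase TPL2, had 74.3 and 57.9 CPM untreated, 196 and 174 CPM with 1 µg/ml, and 182.5 and 197 CPM with 10 µg/ml, a change of 1.48 ± 0.14 with 1 µg/ml (adjusted p = 3.63e-06). CYLD, a deubiquitinase that removes linear and other non-degradative chains, had the most even untreated libraries, 150.1 and 150.3 CPM. With 1 µg/ml it had 292 and 304 CPM, a change of 0.99 ± 0.15 (adjusted p = 0.000173).

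Of the adaptors, TRAF1, the family member without a RING finger, had 98.9 and 90.1 CPM untreated, 1204 and 1015.5 CPM with 1 µg/ml, and 1429 and 1263 CPM with 10 µg/ml. This was the largest change of the 10, 3.55 ± 0.20 with 1 µg/ml (adjusted p = 4.21e-08) and 3.84 ± 0.20 with 10 µg/ml (adjusted p = 2.55e-08). TRAF3, the bridge between NIK and the cIAPs, had 67.8 and 57.9 CPM untreated, 231 and 212 CPM with 1 µg/ml, and 231 and 204 CPM with 10 µg/ml. It changed by 1.82 ± 0.17 with 1 µg/ml (adjusted p = 2.50e-06). TRAF2, which brings the cIAPs to receptors, had 24.4 and 28.7 CPM untreated, 44.9 and 45.8 CPM with 1 µg/ml, and 41.1 and 49.5 CPM with 10 µg/ml, a change of 0.77 ± 0.15 with 1 µg/ml (adjusted p = 0.00115).

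The neighbouring cIAP genes, which encode ubiquitin ligases, both rose. BIRC3 (cIAP2) had 53.5 and 45.7 CPM untreated, 293 and 319.5 CPM with 1 µg/ml, and 339 and 334 CPM with 10 µg/ml, a change of 2.63 ± 0.22 with 1 µg/ml (adjusted p = 9.82e-07). BIRC2 (cIAP1) had 56.0 and 60.5 CPM untreated, 95.2 and 96.3 CPM with 1 µg/ml, and 108.8 and 98.7 CPM with 10 µg/ml, the smallest change of the 10 with 1 µg/ml, 0.72 ± 0.16 (adjusted p = 0.00349). Per length of exon, BIRC3 stood at 40.7 and BIRC2 at 21.1 CPM per kilobase with 1 µg/ml, against 6.59 and 12.9 untreated, so their order was reversed. TNFAIP8, an NF-κB-induced inhibitor of cell death, had 95.1 and 87.9 CPM untreated, 167 and 198 CPM with 1 µg/ml, and 199 and 189 CPM with 10 µg/ml, a change of 1.00 ± 0.17 with 1 µg/ml (adjusted p = 0.000452). Markers of cell state differed as well at 4 h. CYBB, a subunit of the neutrophil oxidase, had 944 to 989 CPM untreated, 1628 to 1685 CPM with 1 µg/ml and 1463 to 1895.5 CPM with 10 µg/ml, while ITGAM had 123 to 128, 97.8 to 101 and 97.3 to 107 CPM. The 6 neutrophil-like markers summed to 2051 to 2311 CPM untreated, 2806 to 2888 CPM with 1 µg/ml and 2701 to 3176 CPM with 10 µg/ml, and the 5 promyelocyte markers to 8853 to 11758, 8363 to 9183 and 7476.5 to 8558 CPM. PRTN3, of the promyelocyte list, had 142 to 149.6 CPM untreated, 65.7 to 91.2 CPM with 1 µg/ml and 45.0 to 85.8 CPM with 10 µg/ml. The part of these shifts in the values at 4 h was not tested. At 4 h all 10 calls held with either dose when any 1 library was left out. With upper-quartile scaling the median of all genes moved by -0.12 with 1 µg/ml and -0.13 with 10 µg/ml, the calls over all genes were 1805 higher and 3077 lower in place of 2214 and 2380 with 1 µg/ml and 1868 and 3263 in place of 2379 and 2524 with 10 µg/ml, and all 10 genes stayed higher.

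**Figure D3:**
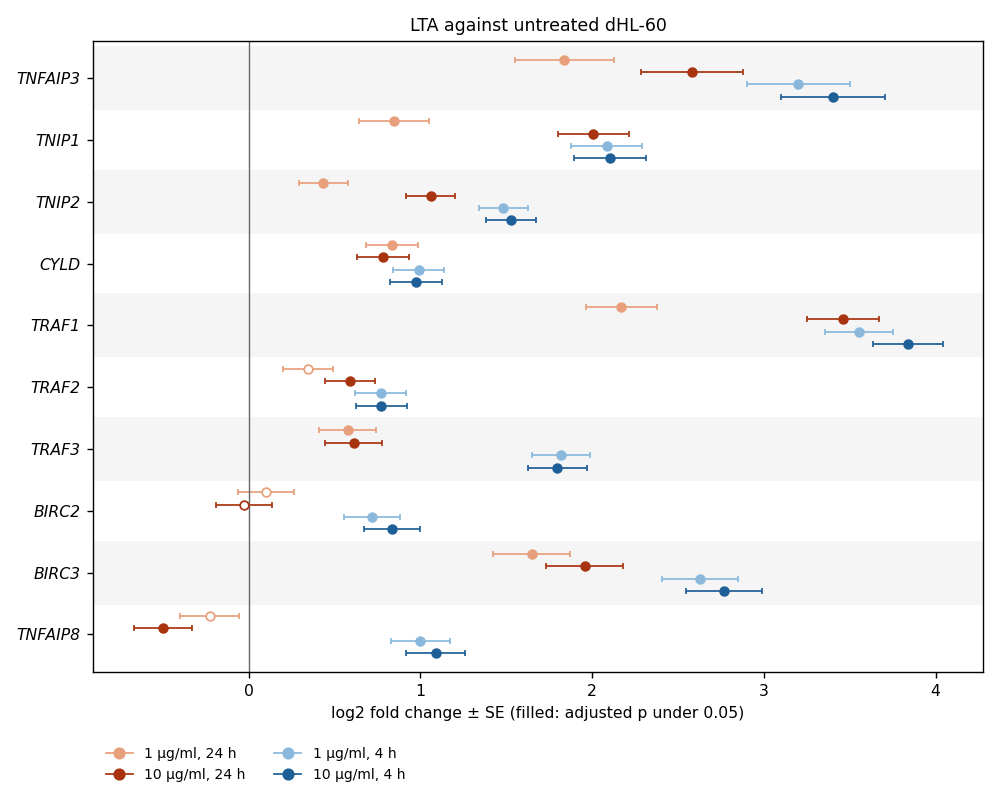
Log2 fold change ± SE of LTA against untreated dHL-60 for each gene, by dose and time, from edgeR (n = 2 libraries per group). Filled points have an adjusted p under 0.05. TRAF1 and TNFAIP3 lie farthest to the right at both times, and TNFAIP8 with 10 µg/ml at 24 h is the only filled point below 0.

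After 24 h of LTA the genes divided. Treatment with 1 µg/ml left 7 of the 10 higher and 0 lower than in untreated dHL-60 of 24 h, and with 10 µg/ml 8 were higher and 1, TNFAIP8, was lower. Over all genes tested 13.9% were higher and 7.26% lower with 1 µg/ml, and 23.6% were higher and 19.0% lower with 10 µg/ml. The median log2 fold change of the 10 genes was 0.71 with 1 µg/ml and 0.92 with 10 µg/ml, against 0.01 and -0.01 over all genes. With either dose both LTA libraries were above both untreated ones for 8 genes, below them for TNFAIP8, and overlapped them for BIRC2. The share of all genes tested with such a separation was not counted.

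TNFAIP3 at 24 h had 48.1 and 33.4 CPM untreated, 177 and 113 CPM with 1 µg/ml, and 253 and 229 CPM with 10 µg/ml, with changes of 1.84 ± 0.29 (adjusted p = 0.000512) and 2.58 ± 0.30 (adjusted p = 1.44e-05). TNIP1 had 88.0 and 86.7 CPM untreated, 170.2 and 141 CPM with 1 µg/ml, and 383 and 307 CPM with 10 µg/ml, with changes of 0.85 ± 0.20 (adjusted p = 0.00883) and 2.01 ± 0.21 (adjusted p = 5.68e-06). At 10 µg/ml it was the most abundant of the 10 per length, at 59.6 CPM per kilobase, above TNFAIP3 at 47.65. TNIP2 had 39.6 and 40.1 CPM untreated, 50.2 and 56.5 CPM with 1 µg/ml, and 83.8 and 79.7 CPM with 10 µg/ml, with changes of 0.44 ± 0.14 (adjusted p = 0.0459) and 1.06 ± 0.14 (adjusted p = 6.50e-05). CYLD had 111 and 87.8 CPM untreated, 189 and 161.5 CPM with 1 µg/ml, and 153 and 183.5 CPM with 10 µg/ml, with changes of 0.83 ± 0.15 (adjusted p = 0.00147) and 0.78 ± 0.15 (adjusted p = 0.00103).

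TRAF1 had 9.42 and 9.64 CPM untreated, 50.5 and 34.4 CPM with 1 µg/ml, and 116 and 90.9 CPM with 10 µg/ml. It again had the largest change of the 10, 2.17 ± 0.21 with 1 µg/ml (adjusted p = 7.89e-06) and 3.46 ± 0.21 with 10 µg/ml (adjusted p = 5.03e-08). TRAF3 had 49.2 and 59.7 CPM untreated, 92.9 and 67.6 CPM with 1 µg/ml, and 84.0 and 79.6 CPM with 10 µg/ml, with changes of 0.58 ± 0.17 (adjusted p = 0.0241) and 0.61 ± 0.17 (adjusted p = 0.00932). TRAF2 had 26.1 and 27.9 CPM untreated, 33.0 and 34.9 CPM with 1 µg/ml, and 43.6 and 36.5 CPM with 10 µg/ml, and passed the test with 10 µg/ml (0.59 ± 0.15, adjusted p = 0.00538) but not with 1 µg/ml (0.35 ± 0.15, adjusted p = 0.112).

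The cIAPs parted at this time. BIRC3 had 18.9 and 11.4 CPM untreated, 56.6 and 38.4 CPM with 1 µg/ml, and 58.8 and 58.1 CPM with 10 µg/ml, with changes of 1.65 ± 0.22 (adjusted p = 0.000151) and 1.96 ± 0.22 (adjusted p = 1.43e-05). BIRC2 had 51.9 and 39.7 CPM untreated, 51.2 and 46.4 CPM with 1 µg/ml, and 38.3 and 50.2 CPM with 10 µg/ml. Its changes of 0.10 ± 0.16 with 1 µg/ml (adjusted p = 0.708) and -0.03 ± 0.16 with 10 µg/ml (adjusted p = 0.911) did not pass, with 95% intervals of -0.25 to 0.45 and -0.38 to 0.33. TNFAIP8 had 113 and 94.1 CPM untreated, 82.5 and 92.7 CPM with 1 µg/ml, and 59.0 and 85.0 CPM with 10 µg/ml. It fell with 10 µg/ml (-0.50 ± 0.17, adjusted p = 0.0306) and did not pass with 1 µg/ml (-0.23 ± 0.17, adjusted p = 0.386).

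Several calls at 24 h ended when 1 library was left out. The call of TNIP2 with 1 µg/ml ended without any 1 of the 4 libraries compared (0.35 to 0.51, adjusted p 0.102 to 0.234) and with DESeq2 (adjusted p = 0.0528). That of TNIP1 ended without either untreated library (0.87 and 0.82, adjusted p = 0.0551 and 0.0616) or LTA replicate 1 (0.70, adjusted p = 0.1), and that of TRAF3 without untreated replicate 1 (0.45, adjusted p = 0.189) or LTA replicate 1 (0.32, adjusted p = 0.325), so that 4 to 6 of the 7 calls were left. With 10 µg/ml the call of TNFAIP8 ended without untreated replicate 1 (-0.35, adjusted p = 0.224) or LTA replicate 1 (-0.32, adjusted p = 0.2), that of TRAF3 likewise (0.49 and 0.51, adjusted p = 0.0973 and 0.0725), and that of TRAF2 without LTA replicate 1 (0.40, adjusted p = 0.11). With upper-quartile scaling the calls over all genes with 1 µg/ml at 24 h were 1441 higher and 1179 lower, in place of 1651 and 862. Markers of cell state differed with LTA at this time too. The 6 neutrophil-like markers summed to 834.7 to 838.7 CPM untreated, 1647 to 1841 CPM with 1 µg/ml and 2295 to 2299 CPM with 10 µg/ml. Of these, ITGAM, an integrin of mature neutrophils, had 64.5 to 66.7 CPM untreated, 188 to 209 CPM with 1 µg/ml and 229 to 255 CPM with 10 µg/ml. CSF3R went the other way, with 244 to 298 CPM untreated, 172 to 180.5 CPM with 1 µg/ml and 207 to 213 CPM with 10 µg/ml. PRTN3, a protease of promyelocyte granules, had 858 to 1142 CPM untreated, 108 to 284 CPM with 1 µg/ml and 87.8 to 118 CPM with 10 µg/ml. The 5 promyelocyte markers summed to 4801 to 9277 CPM with LTA, against 16831 to 22225 CPM untreated, and their part in the values at 24 h was not tested.

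The next comparison set 10 µg/ml against 1 µg/ml. At 4 h 0 of the 10 genes differed between the doses by edgeR, 0 had an unadjusted p under 0.05 and DESeq2 called 0. Over all genes tested 0.00843% were called in either direction. TRAF1 had the largest difference at 4 h, 0.29 ± 0.18 (adjusted p = 1), with a 95% interval of -0.10 to 0.67, and TNFAIP3 differed by 0.20 ± 0.27, with an interval of -0.39 to 0.79. The intervals of the other 8 genes lay between -0.41 and 0.58.

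At 24 h 3 genes were higher with 10 µg/ml than with 1 µg/ml and 0 were lower, against 3.03% and 0.792% of all genes tested. They were TRAF1 (1.29 ± 0.19, adjusted p = 0.00265), TNIP1 (1.16 ± 0.20, adjusted p = 0.00677) and TNIP2 (0.62 ± 0.14, adjusted p = 0.0296). TNFAIP3, the partner of both TNIP genes, differed by 0.74 ± 0.28 (adjusted p = 0.144). It passed when only the libraries of these groups were fitted (adjusted p = 0.0239). With the replicate number as a block in the edgeR fit it passed too (0.79, adjusted p = 0.00758). For TRAF1, TNIP1, TNIP2 and TNFAIP3 both libraries with 10 µg/ml were above both with 1 µg/ml. The same held for BIRC3 and TRAF2, which did not pass, and the share of all genes was not counted. The difference of CYLD was -0.05 ± 0.15 (95% interval -0.37 to 0.27) and that of TRAF3 was 0.04 ± 0.16 (95% interval -0.32 to 0.39). Without replicate 2 of 1 µg/ml 0 genes were called (TRAF1 1.03, adjusted p = 0.0573). Without replicate 1 of 10 µg/ml 1 gene, TRAF1, was left, and without replicate 1 of 1 µg/ml the call of TNIP2 ended (adjusted p = 0.216).

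Time in culture moved several of the genes without LTA. In untreated dHL-60 6 of the 10 were lower at 24 h than at 4 h and 0 were higher, against 23.1% lower and 17.8% higher among all genes tested. TRAF1 fell most, with 9.42 and 9.64 CPM at 24 h against 98.9 and 90.1 CPM at 4 h (-3.30 ± 0.21, adjusted p = 2.27e-07). TNFAIP3 changed by -2.12 ± 0.29 (adjusted p = 9.06e-05), BIRC3 by -1.69 ± 0.22 (adjusted p = 6.88e-05), TNIP1 by -1.18 ± 0.20 (adjusted p = 0.000519), TNIP2 by -0.72 ± 0.14 (adjusted p = 0.00147) and CYLD by -0.59 ± 0.15 (adjusted p = 0.007). BIRC2, TRAF2, TRAF3 and TNFAIP8 had differences between -0.34 and 0.18 that did not pass. The call of CYLD ended without untreated replicate 2 of 24 h (-0.42, adjusted p = 0.0846), and BIRC2 passed without untreated replicate 1 of 24 h (-0.55, adjusted p = 0.0468). Over the same libraries ITGAM had 64.5 to 66.7 CPM at 24 h against 123 to 128 CPM at 4 h, and PRTN3 had 858 to 1142 CPM against 142 to 149.6 CPM. The part of that shift in the fall of the genes was not tested.

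With LTA nearly the whole set was lower at 24 h than at 4 h. All 10 of 10 were lower with 1 µg/ml, against 23.3% lower and 25.5% higher of all genes tested, and with 10 µg/ml 9 of 10 were lower, against 22.7% and 24.0%. The median log2 difference of the 10 genes was -1.61 with 1 µg/ml and -1.33 with 10 µg/ml, against 0.05 and 0.03 over all genes. TRAF1 had 50.5 and 34.4 CPM at 24 h against 1204 and 1015.5 CPM at 4 h with 1 µg/ml (-4.69 ± 0.21, adjusted p = 2.78e-09). TNFAIP3 changed by -3.48 ± 0.30 with 1 µg/ml (adjusted p = 9.01e-07) and by -2.94 ± 0.30 with 10 µg/ml (adjusted p = 4.16e-06). TRAF2 was the exception with 10 µg/ml (-0.16 ± 0.15, adjusted p = 0.405), and its call with 1 µg/ml (-0.40 ± 0.15, adjusted p = 0.0379) ended without any 1 of the 4 libraries compared (adjusted p 0.0855 to 0.158) and with upper-quartile scaling (adjusted p = 0.0757).

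Whether the response to LTA itself was smaller at 24 h than at 4 h was tested as an interaction, each time against its own untreated libraries. With 1 µg/ml the response was smaller at 24 h for 7 genes and larger for 0, against 7.41% lower and 13.3% higher of all genes tested. TRAF1 differed by -1.38 ± 0.27 (adjusted p = 0.0029), TNFAIP3 by -1.36 ± 0.40 (adjusted p = 0.0265), TRAF3 by -1.24 ± 0.23 (adjusted p = 0.00217), TNIP1 by -1.24 ± 0.28 (adjusted p = 0.00727), TNFAIP8 by -1.225 ± 0.24 (adjusted p = 0.00283), TNIP2 by -1.05 ± 0.20 (adjusted p = 0.00252) and BIRC3 by -0.98 ± 0.30 (adjusted p = 0.0357). CYLD differed by -0.16 ± 0.21 (95% interval -0.61 to 0.30, adjusted p = 0.654), and BIRC2 (-0.61, adjusted p = 0.0767) and TRAF2 (-0.42, adjusted p = 0.18) did not pass. With 10 µg/ml 3 genes had a smaller response at 24 h and 0 a larger one, against 14.0% and 19.7% of all genes. These were TNFAIP8 (-1.59 ± 0.24, adjusted p = 0.000303), TRAF3 (-1.185 ± 0.23, adjusted p = 0.0019) and BIRC2 (-0.86 ± 0.23, adjusted p = 0.0115).

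With 10 µg/ml TRAF1 and TNIP1, by contrast, had differences of -0.38 ± 0.27 and -0.10 ± 0.28 between the times, with 95% intervals of -0.96 to 0.20 and -0.71 to 0.51. BIRC3 missed the threshold (-0.81 ± 0.30, adjusted p = 0.0537) and passed with DESeq2 (adjusted p = 0.0193). With the replicate number as a block in the edgeR fit, TNFAIP3 and BIRC3 passed (-0.81 and -0.79, adjusted p = 0.00931 and 0.0343). Several of these calls depended on 1 library. With 1 µg/ml TNFAIP3 was lost without untreated replicate 1 of 24 h, untreated replicate 2 of 4 h, LTA replicate 2 of 24 h or LTA replicate 1 of 4 h (adjusted p 0.0761 to 0.131), and BIRC3 without untreated replicate 1 of 24 h, untreated replicate 2 of 4 h, or replicate 2 of LTA at 24 h or 4 h (-0.92 to -0.54, adjusted p 0.0839 to 0.255), while BIRC2 passed without untreated replicate 2 of 24 h (-0.80, adjusted p = 0.032). With 10 µg/ml BIRC2 was lost without untreated replicate 1 of 24 h (adjusted p = 0.0682), BIRC3 passed without untreated replicate 2 of 24 h (-1.13, adjusted p = 0.00894), and TNFAIP3 and TNIP2 passed without untreated replicate 1 of 4 h (-1.225 and -0.67, adjusted p = 0.0349 and 0.0285).

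**Figure D4:**
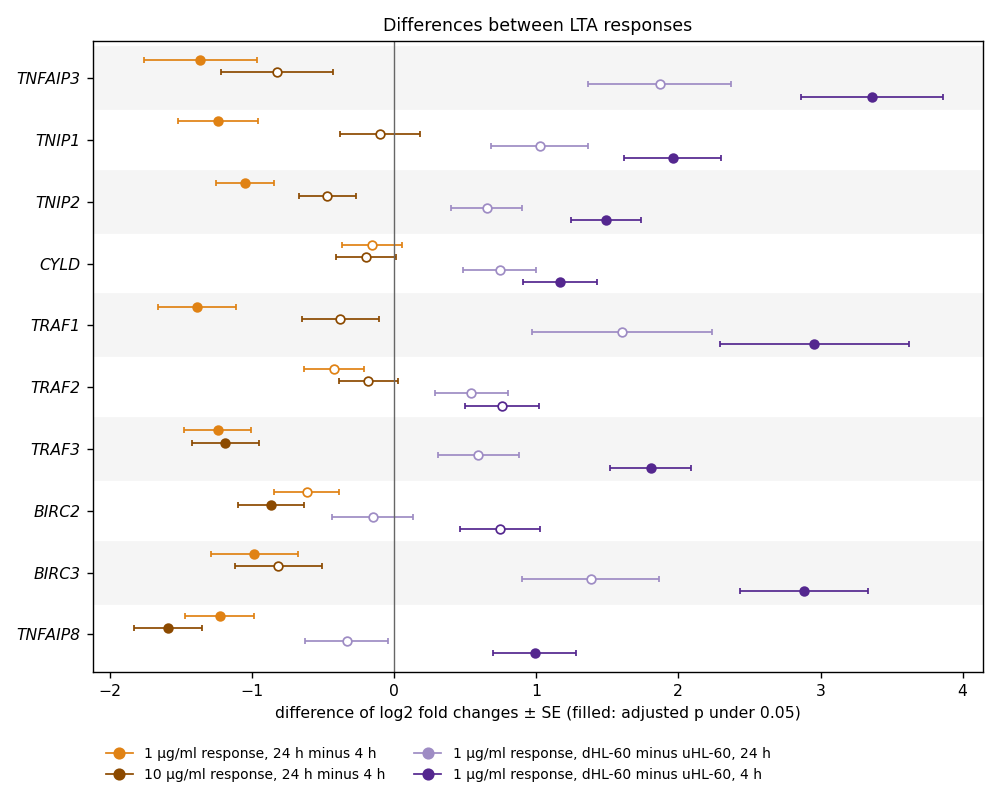
Differences between LTA responses ± SE on the log2 scale for each gene, from edgeR interaction terms. Orange and brown points are the response at 24 h minus that at 4 h in dHL-60 (2 libraries per group), and violet points the response of dHL-60 minus that of uHL-60 (1 library per uHL-60 group). Filled points have an adjusted p under 0.05, as 7 orange, 3 brown and 8 dark violet points do.

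The cell states differed before any LTA. Across both times, untreated dHL-60 had more RNA than untreated uHL-60 for 6 of the 10 genes and less for 1, against 29.7% higher and 28.3% lower of 11884 genes tested. TRAF1 was the most different, with 9.42 to 98.9 CPM in the 4 dHL-60 libraries and 0.644 and 0.720 CPM in the 2 uHL-60 libraries, which rest on 13 and 14 counts (5.67 ± 0.67, adjusted p = 0.000171). BIRC3 had 11.4 to 53.5 CPM in dHL-60 and 3.91 and 2.67 CPM in uHL-60 (3.06 ± 0.36, adjusted p = 0.000163). TNFAIP3 had 33.4 to 219.9 CPM in dHL-60 and 21.8 and 14.9 CPM in uHL-60 (2.16 ± 0.40, adjusted p = 0.00177). In none of these 3 genes did the libraries of the cell states overlap, and the share of all genes without overlap was not counted.

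CYLD was higher by 1.43 ± 0.22 (adjusted p = 0.000631), BIRC2 by 0.83 ± 0.19 (adjusted p = 0.00596) and TNFAIP8 by 0.55 ± 0.18 (adjusted p = 0.0285). TRAF2 was the gene that went the other way, with 24.4 to 28.7 CPM in dHL-60 and 43.8 and 40.5 CPM in uHL-60 (-0.69 ± 0.17, adjusted p = 0.00815). TRAF3 differed by 0.04 ± 0.18 (95% interval -0.36 to 0.44), and TNIP1 (0.58 ± 0.30, adjusted p = 0.129) and TNIP2 (0.43 ± 0.22, adjusted p = 0.113) did not pass. The fit takes the difference between the states to be the same at both times. TRAF1 had means of 94.5 CPM in untreated dHL-60 and 0.644 CPM in untreated uHL-60 at 4 h, and 9.53 and 0.720 CPM at 24 h. TNFAIP3 had 178.0 and 21.8 CPM at 4 h, and 40.75 and 14.9 CPM at 24 h. BIRC3 had 49.6 and 3.91 CPM at 4 h, and 15.15 and 2.67 CPM at 24 h. TNIP1 had means of 197.9 CPM in untreated dHL-60 and 81.4 CPM in untreated uHL-60 at 4 h, and 87.3 and 85.9 CPM at 24 h. TNIP2 had 66.1 and 36.4 CPM at 4 h, and 39.9 and 37.2 CPM at 24 h. Without the untreated uHL-60 library of 24 h the fit rests on the uHL-60 library of 4 h alone. The differences were then 1.21 for TNIP1, 0.79 for TNIP2 and 0.37 for TNFAIP8. The call of TNFAIP8 ended without untreated dHL-60 replicate 1 or 2 of 24 h or replicate 1 of 4 h (adjusted p 0.0567 to 0.0701). A batch of culture or library shared by all uHL-60 libraries cannot be told apart from the cell state. PRG2, a granule protein of eosinophils, had at most 17.6 CPM in dHL-60 and 4138 to 4461 CPM in uHL-60, and its part was not tested. With upper-quartile scaling the median of all genes moved by 0.12, and no gene of the set changed direction.

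In uHL-60 the response to LTA has no replicate, so each ratio of LTA over untreated is given with a 95% exact binomial interval that covers counting error only. At 4 h the 10 ratios lay between 0.8385 and 1.52, with an interval above 1 for 1 gene, below 1 for 1 gene and including 1 for 8. TNIP1 was the gene above, at 88.8 CPM with LTA and 81.4 CPM untreated (1.09, interval 1.02 to 1.17), and CYLD the gene below, at 38.1 CPM with LTA and 43.1 CPM untreated (0.883, interval 0.797 to 0.978). TNFAIP3 had 19.6 CPM with LTA and 21.8 CPM untreated (0.896, interval 0.776 to 1.03). TRAF1 rested on 17 counts with LTA and 13 untreated (1.52, interval 0.695 to 3.40), and BIRC3 on 57 and 79 counts (0.8385, interval 0.586 to 1.19). At 24 h the ratios lay between 0.852 and 1.47. BIRC2 was above 1 (1.18, interval 1.05 to 1.33), TNIP1 (0.875), TNIP2 (0.852) and TRAF2 (0.863) were below it, and 6 included 1.

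The difference between the responses of dHL-60 and uHL-60 to 1 µg/ml LTA was tested over all 16 libraries, with each lone uHL-60 library taken to vary like a dHL-60 replicate. At 4 h the response was larger in dHL-60 for 8 genes and smaller for 0, against 5.43% and 4.91% of 12603 genes tested. TNFAIP3 differed by 3.36 ± 0.50 (adjusted p = 0.000918), TRAF1 by 2.96 ± 0.66 (adjusted p = 0.0116), BIRC3 by 2.88 ± 0.45 (adjusted p = 0.00124), TNIP1 by 1.96 ± 0.34 (adjusted p = 0.0025), TRAF3 by 1.81 ± 0.28 (adjusted p = 0.00127), TNIP2 by 1.49 ± 0.25 (adjusted p = 0.00191), CYLD by 1.17 ± 0.26 (adjusted p = 0.0107) and TNFAIP8 by 0.99 ± 0.29 (adjusted p = 0.0444). BIRC2 (0.74 ± 0.28, adjusted p = 0.118) and TRAF2 (0.76 ± 0.26, adjusted p = 0.0804) did not pass. TNFAIP8 was lost with upper-quartile scaling (adjusted p = 0.0698) and without replicate 2 of untreated or LTA-treated dHL-60 at 4 h (adjusted p = 0.0811 and 0.113). That scaling moved the median of all genes by -0.10 and gave 577 higher and 799 lower calls over all genes, in place of 684 and 619, while DESeq2 gave 824 higher and 479 lower.

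At 24 h 0 of the 10 genes passed by edgeR, against 1.63% of all genes in either direction, and DESeq2 called 0. An unadjusted p under 0.05 by edgeR was found for 6 genes, and the share of all genes at that threshold was not counted. TNFAIP3 came closest, at 1.87 ± 0.50 (adjusted p = 0.0827), and passed without LTA replicate 2 of dHL-60 at 24 h (2.18, adjusted p = 0.0489). With the replicate number as a block in the edgeR fit, TNFAIP3 was called (1.86). The median of the 10 differences was 0.70, against 0.01 over all genes, and those of BIRC2 (-0.15 ± 0.28) and TNFAIP8 (-0.33 ± 0.29) were below 0.

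The wider machinery was read from 46 genes chosen by function, of which 44 were tested within dHL-60. At 4 h 21 were higher and 4 lower with 1 µg/ml LTA, and 21 were higher and 6 lower with 10 µg/ml, against 18.7% higher and 20.1% lower and 20% higher and 21.3% lower of all genes tested. Their median log2 fold change was 0.34 with 1 µg/ml and 0.33 with 10 µg/ml, against -0.04 over all genes with each dose. At 24 h 11 were higher and 0 lower with 1 µg/ml, against 13.9% and 7.26% of all genes, and 17 were higher and 1 lower with 10 µg/ml, against 23.6% and 19.0%. By role, 7 of the 10 kinase genes were higher and 1 lower with 1 µg/ml at 4 h. Of the 6 genes of non-degradative chain enzymes, 3 were higher and 1 lower. Of the 5 genes that write and erase linear chains, 0 were higher and 1, SHARPIN, was lower (-0.79 ± 0.17, adjusted p = 0.00234), a gene named after its value was seen.

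Of the 7 other TRAF genes and partners tested, 3 were higher and 0 lower with 1 µg/ml at 4 h, and 3 were higher and 1, TRADD, lower with 10 µg/ml (-0.58 ± 0.17, adjusted p = 0.0166), TRADD being named after its value was seen. IKBKE, the kinase IKKε, had 63.9 to 74.05 CPM untreated at 4 h, 268 to 323 CPM with 1 µg/ml and 276.5 to 295 CPM with 10 µg/ml (2.10 ± 0.20 with 1 µg/ml, adjusted p = 2.62e-06). TANK, an adaptor that binds TRAFs and IKKε, had 58.5 to 69.9 CPM untreated, 232 to 246 CPM with 1 µg/ml and 248 to 283 CPM with 10 µg/ml (1.895 ± 0.16 with 1 µg/ml, adjusted p = 1.27e-06). At 24 h both were higher with 1 µg/ml than in untreated cells of that time. The changes were 1.48 ± 0.20 for IKBKE (adjusted p = 0.000139) and 1.02 ± 0.17 for TANK (adjusted p = 0.000635). IKBKE then had 26.0 to 27.1 CPM untreated and 58.8 to 87.8 CPM with 1 µg/ml, and TANK 23.9 to 29.85 and 48.4 to 59.8 CPM. Untreated levels were lower at 24 h than at 4 h, by -1.37 ± 0.20 for IKBKE (adjusted p = 0.000133) and -1.25 ± 0.17 for TANK (adjusted p = 6.88e-05). RIPK2, the kinase of the NOD receptors, changed by 1.79 ± 0.17 with 1 µg/ml at 4 h (adjusted p = 3.42e-06) and by 0.27 ± 0.17 at 24 h (adjusted p = 0.304). With 1 µg/ml at 4 h RNF11, a partner of A20, changed by 1.355 ± 0.24 (adjusted p = 0.000561), PELI1, a ubiquitin ligase, by 1.28 ± 0.19 (adjusted p = 0.000164), TAB2, the chain reader of the TAK1 kinase, by 1.27 ± 0.17 (adjusted p = 6.37e-05), TBK1 by 1.13 ± 0.14 (adjusted p = 2.73e-05) and TRAF4 by 1.08 ± 0.16 (adjusted p = 0.000112). BCL10, of the CARD-BCL10-MALT1 complex, changed by 1.02 ± 0.15 with 10 µg/ml at 4 h (adjusted p = 0.000148) and DIABLO, an antagonist of the IAPs, by 1.20 ± 0.31 (adjusted p = 0.00708). DIABLO rested on 84 counts untreated and 188 with 10 µg/ml, 3.09 to 4.94 and 7.47 to 10.8 CPM. In the uHL-60 libraries it had 59.0 to 65.5 CPM.

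TNIP3 (ABIN3), the third A20-binding gene, was nearly silent without LTA. It had 2 counts over both untreated dHL-60 libraries at 4 h, against which the 141 counts with 1 µg/ml are a 72.65-fold ratio (95% interval 19.7 to 606) and the 104 counts with 10 µg/ml a 53.7-fold ratio (14.5 to 449). At 24 h it had 0 untreated counts, 38 with 1 µg/ml and 173 with 10 µg/ml, at least 14.1-fold and at least 70.3-fold higher when 3 counts over the group are taken as the floor. With 10 µg/ml at 24 h it was higher than with 1 µg/ml (adjusted p = 0.0283), and it had 0 counts in all 4 uHL-60 libraries. TAB1, another TAK1 partner, was lower at 4 h, by -0.98 ± 0.18 with 1 µg/ml (adjusted p = 0.000659) and -1.11 ± 0.18 with 10 µg/ml (adjusted p = 0.000251).

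PELI3, a relative of PELI1, was higher than untreated at 24 h with 1 µg/ml (0.93 ± 0.26, adjusted p = 0.0198) and lower at 4 h (-0.90 ± 0.26, adjusted p = 0.0151). The interaction passed (1.83 ± 0.37, adjusted p = 0.00326). PELI3 had 5.74 to 7.21 CPM untreated and 2.86 to 3.94 CPM with 1 µg/ml at 4 h, and 2.41 to 2.91 and 4.87 to 5.12 CPM at 24 h. From 4 h to 24 h untreated cells changed by -1.28 ± 0.26 (adjusted p = 0.00155) and cells with 1 µg/ml by 0.55 ± 0.26 (adjusted p = 0.099). BIRC5 (survivin), an IAP family member of dividing cells, was higher at 24 h with 10 µg/ml (1.12 ± 0.13, adjusted p = 2.03e-05) and did not pass at 4 h (-0.13 ± 0.13, adjusted p = 0.469). All 3 relatives of TNFAIP8 were higher with 10 µg/ml at 24 h, TNFAIP8L1 by 1.32 ± 0.20 (adjusted p = 0.000147) and TNFAIP8L3, on 43 counts with LTA and 9 untreated, by 2.535 ± 0.50 (adjusted p = 0.00124), while TNFAIP8 itself was lower.

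Over the 12 dHL-60 libraries the members followed each other to different degrees. As a description, with values that share groups, libraries and depth, Pearson r of log2 CPM was 0.99 between TNFAIP3 and BIRC3, 0.99 between TNFAIP3 and TRAF1 and 0.98 between TNFAIP3 and each of the TNIP genes. It was 0.48 between TRAF2 and TNFAIP8, the lowest of the 45 pairs, and 0.93 between BIRC2 and TNFAIP8. Among the other 11865 genes that passed the filter, those most like TNFAIP3 were TANK (0.9973), NFKB2 (0.9971) and SLC25A25 (0.9941). Most like TRAF1 were the chemokine genes CXCL3 (0.9976) and CXCL2 (0.9968) and then RIT1 (0.9966), and most like BIRC3 were SOD2 (0.9955), TANK (0.9954) and KCNJ2 (0.9953). TNIP1 was closest to C1orf122 (0.9957), TNIP2 to RHOH (0.9958), CYLD to TRIM36 (0.9929), TRAF3 to PSMA6 (0.9894), BIRC2 to GEN1 (0.9893), TNFAIP8 to UFM1 (0.9858) and TRAF2 to ADAMTS14 (0.9715).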

How the data were processed

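Stranded mRNA libraries of 12 dHL-60 and 4 uHL-60 samples were analysed from the raw counts per gene that the authors deposited. Per the submitters' processing notes, which give neither roles nor order, the build was GRCh38 and the tools included featureCounts 2.0.1, HISAT2 2.1.0, fastp 0.20.0, edgeR 3.36.0 and DESeq2 1.28.0. How strand was treated in counting was not stated in the sources used here.

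The uHL-60 columns were stored in another sort order of the symbols than the dHL-60 columns and were realigned by symbol order. This moved 1343 symbols, 0 of the 10 genes and 1 of the 46 pathway genes (USP21). Over the moved symbols the correlation of uHL-60 with dHL-60 levels was 0.251 as deposited and 0.903 realigned, against 0.943 over the others.

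Counts were filtered with filterByExpr, scaled by TMM and tested with edgeR 4.0.16 in R 4.3.3 (quasi-likelihood, Benjamini-Hochberg over all genes tested, adjusted p under 0.05), within the 12 dHL-60 libraries, the 6 untreated ones or all 16. The scripts were tested on simulated data. DESeq2 1.42.0, other scalings, no filter, a replicate block and leaving out libraries were the alternatives. Python 3.11.15, pandas 2.3.3, scipy 1.17.1 and matplotlib 3.10.9 did the rest. CPM are counts over TMM-scaled totals, intervals of log2 differences use the t quantile of each gene's degrees of freedom, and intervals on counts cover counting error only. The 10 genes, the pathway list and the markers were chosen with earlier results of these data known. A pathway gene was named where it passed with an absolute log2 fold change of at least 1 for LTA against untreated dHL-60.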

Additional observations from a re-analysis of the deposited data

Results flagged for a closer look

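The LTA response of 7 genes differed between 24 h and 4 h with 1 µg/ml by the edgeR interaction term, given here as 24 h minus 4 h on the log2 scale. The values were -1.38 for TRAF1, -1.36 for TNFAIP3, -1.24 for TRAF3, -1.24 for TNIP1, -1.225 for TNFAIP8, -1.05 for TNIP2 and -0.98 for BIRC3. With 10 µg/ml 3 genes differed, TNFAIP8 by -1.59, TRAF3 by -1.185 and BIRC2 by -0.86.

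The response to 1 µg/ml LTA at 4 h differed between dHL-60 and uHL-60 for 8 genes by the same kind of test, with 1 library in each uHL-60 group. The difference, dHL-60 minus uHL-60, was 3.36 for TNFAIP3, 2.96 for TRAF1, 2.88 for BIRC3, 1.96 for TNIP1, 1.81 for TRAF3, 1.49 for TNIP2, 1.17 for CYLD and 0.99 for TNFAIP8. Cell state and any batch that the uHL-60 libraries share cannot be told apart.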

How the results depend on the processing

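Of 1500 tested values of the 10 genes under all alternatives, 1426 kept their side of the threshold, 49 lost the call, 25 gained it and 0 called values reversed. Of the 1426, 32 values that were not called changed sign. Among the 660 values with 1 library left out 612 kept their side, 28 of them uncalled with a changed sign, 40 lost the call and 8 gained it. The untested uHL-60 ratio of TNIP2 at 4 h, -0.01 on the log2 scale, was 0.01 with upper-quartile scaling and 0.00074 with library totals. The count of genes with another LTA response at 24 h than at 4 h with 10 µg/ml was 3, and 5 with no filter on low counts. The count of genes whose response differed between dHL-60 and uHL-60 at 24 h was 0, and 3 with no filter. Leaving out 1 library gave 4 to 6 calls for 1 µg/ml at 24 h, 0 to 3 for 10 µg/ml against 1 µg/ml at 24 h, 2 to 5 for the response with 10 µg/ml and 0 to 1 for the difference between dHL-60 and uHL-60 at 24 h. The cause was not tested. The alternative without each untreated uHL-60 library was chosen after seeing the data.

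The labels do not say whether equal replicate numbers pair the samples. Over the genes tested, 5 of 15 pairs of groups had a correlation of deviations over 0.1 (median 0.088, range -0.20 to 0.38). These values do not settle pairing for single genes. With the replicate block, 5 genes in place of 3 had another response at 24 h with 10 µg/ml (TNFAIP3 and BIRC3 added), TNFAIP3 was also higher with 10 µg/ml than with 1 µg/ml at 24 h (0.79, adjusted p = 0.00758 by edgeR), and 1 in place of 0 (TNFAIP3, 1.86, adjusted p = 0.00261 by edgeR) differed between dHL-60 and uHL-60 at 24 h. The block ended 1 call, TNFAIP8 in untreated dHL-60 against uHL-60, and changed no other call of the 10 genes. Having 2 libraries per group limits the precision throughout.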

Other observations

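In each of the 6 dHL-60 groups the library numbered 1 had more TNFAIP3 and TNIP1 CPM than the library numbered 2 (6 of 6 groups each). The same held in 5 of 6 groups for BIRC3, TRAF1 and TRAF3, in 1 of 6 for TRAF2 and in 3 of 6 for each of the other genes. HBB, the beta chain of haemoglobin, had 32.2 to 35.1 CPM in untreated dHL-60 at 4 h, 0.158 to 0.497 CPM with 1 µg/ml LTA and 20.9 to 23.6 CPM with 10 µg/ml.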
